A study of Mus musculus with 12 samples.

Results

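Collagens and other extracellular matrix genes were examined in mouse 3T3L-1 pre-adipocytes that had been co-cultured with Raw264.7 macrophages. The set holds 40 genes chosen by name for their place in the matrix, of 20886 gene symbols named on the array. The choice was made with earlier results of these data known. It covers fibrillar, network and collagen VI chains, small leucine-rich proteoglycans, crosslinking enzymes with the collagen chaperone, elastic fibre and fibronectin genes, matricellular proteins and 4 other matrix-related genes. No probe was named for Col12a1, and 37 of the 40 genes passed the filter on dim spots and were tested among 13846 genes. Col15a1 and Eln were too dim on these arrays to be tested.

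The 3T3L-1 line is a mouse embryonic fibroblast line widely used as a pre-adipocyte, and Raw264.7 is a mouse macrophage line. Both are established lines, so each is a model of 1 origin. The pre-adipocytes grew in the lower well and the macrophages on an insert whose pores pass soluble factors, and RNA came from the lower well. Each of the 12 arrays was hybridised with 2 RNAs, co-cultured pre-adipocytes in the Cy5 dye and pre-adipocytes grown alone in Cy3, with the same treatment and time in both. The treatments were none (NT), 100 µM serotonin (S), 100 µM cortisol (C) and 100 µM of each together (CS), and the times were 6, 24 and 48 h. Hormone stocks were in DMSO, and medium with fresh hormone was given after 24 h. There was 1 array for each treatment at each time. The co-culture ratio below is the log2 of the co-cultured over the alone signal on 1 array, so 1 means a doubling and -1 a halving. Its mean at a time is over the 4 treatments, with the standard error (SE) of a limma fit in which time and treatment were additive terms. A gene is called higher or lower where the adjusted p over all genes was under 0.05 and the mean differed by at least 1.5-fold, which is 0.585 on the log2 scale. Nothing in the labels says that arrays of a time came from separate cultures. These p-values measure the spread left over the 12 arrays once time and treatment are taken out as additive terms. They do not measure a spread between replicate cultures. In every array co-culture was in Cy5, so a dye preference of a probe and an effect of co-culture cannot be told apart in the ratio at 1 time. Each time may have been on a slide of its own, in which case time and slide cannot be told apart either.

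Between 18060 and 22653 of the 39429 probes were well above background per array and channel. The spread of the ratio over genes was wider at 48 h (SD 0.666 to 0.699) than at 6 and 24 h (SD 0.333 to 0.449). The alone level of Zbtb16 went against the label on 3 arrays. Zbtb16, a gene that glucocorticoids induce, had an alone level of 8.36 to 8.73 (log2 intensity) on the 3 NT arrays and 11.27 to 11.35 on the 3 C arrays. It stood at 10.67 on the array labelled S at 6 h, at 10.56 on the array labelled S at 24 h and at 9.17 on the array labelled CS at 24 h. The co-cultured channel of Zbtb16 followed the labels, at 8.24 to 8.96 on the NT and S arrays and 10.66 to 11.11 on the C and CS arrays. Over 18 tested genes that glucocorticoids induce, the mean alone level at 6 h was 12.46 with NT, 12.67 with S and 13.27 with C. At 24 h it was 12.97 with NT, 13.29 with S, 13.62 with C and 12.70 with CS. These means put S between NT and C at both times, and CS at 24 h below NT. Whether the labels are wrong was not tested. Results that rest on hormone labels are therefore given with and without these 3 arrays, called the doubtful arrays below.

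Of 14 fibroblast and pre-adipocyte markers 13 were tested, and 2, 1 and 5 of them were lower in co-culture at 6, 24 and 48 h. Their levels were summed on the linear scale and the log2 of the sum taken, so the brightest genes weigh most. An example is S100a4, at 15.89 to 17.06 in co-culture and 16.69 to 18.03 alone. This log2 of the sum overlapped between the channels at 6 and 24 h. At 48 h, when 17 members were called lower, it was 17.85 to 18 in co-culture and 18.32 to 18.82 alone, with no overlap. Of 23 macrophage markers 18 were tested, and 8, 3 and 7 of them were higher in co-culture at 6, 24 and 48 h, while 2 were lower at 48 h. The log2 of their sum, taken the same way, was 15.36 to 15.70 in co-culture and 14.54 to 14.76 alone at 6 h, with no overlap. It was 14.99 to 15.40 and 14.49 to 15.11 at 24 h, and 14.96 to 15.52 and 14.78 to 15.00 at 48 h. The markers Csf1r, Cd14, Clec4d, Clec4e, Aif1, Cd53, Itgam, Itgb2, Arhgdib, Lcp1 and Mpeg1 were well above background on all 12 arrays in both channels. Among the brightest, Clec4e lay from 12.44 to 14.66 in co-culture and from 10.40 to 12.32 alone. Arhgdib lay from 12.88 to 14.03 in co-culture and from 13.15 to 14.50 alone. The dimmest were Adgre1, Lyz2, Cybb and Tyrobp, which lay between 6.19 and 7.47 in both channels. Adgre1 was well above background on 3 arrays in co-culture and 1 alone, Lyz2 on 8 and 7, Cybb on 8 and 2, and Tyrobp on 6 and 0. The part of these markers in the matrix results was not tested. In RNA from a whole well, fewer cells of a type and less RNA per cell cannot be told apart.

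Fibroblasts and pre-adipocytes secrete collagen as triple-helical procollagen, which the endoplasmic reticulum chaperone encoded by Serpinh1 helps to fold. In fibrils, types I and III form the bulk, type V and type XI chains help to set the diameter, and small leucine-rich proteoglycans such as decorin bind the fibril surface. Lysyl oxidases oxidise lysines so that neighbouring collagen and elastin molecules can be joined by covalent crosslinks. Adipose tissue is held in such a network, with collagen VI and basement membrane collagen IV around its cells.

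The proteoglycans, the fibrillar collagens and the lysyl oxidases each held genes called higher and genes called lower in co-culture. Higher in co-culture at all 3 times were Col5a3, Dcn and Loxl2, and lower at all 3 times were Aspn, Ogn, Sparcl1, Postn, Itgbl1, Cd248 and Lrrc17. Of these 10 genes, 6 have an entry in the RefSeq promoter table of GRCm38.p6, and the 150 bases before their start site are shown because these genes were called in the same direction at every time. Capitals mark matches on either strand to the CCAAT box, the TATA box core TATAA, the GC box GGGCGG, the AP-1 motif TGANTCA, the glucocorticoid receptor site AGAACA and the SMAD element CAGACA. A match describes the letters and nothing more.

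Col5a3 (chr9:20815068-20815217, minus strand): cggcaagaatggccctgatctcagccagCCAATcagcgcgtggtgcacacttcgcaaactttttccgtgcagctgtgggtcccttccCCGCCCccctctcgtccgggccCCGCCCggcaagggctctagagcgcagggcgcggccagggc
Aspn (chr13:49544293-49544442, plus strand): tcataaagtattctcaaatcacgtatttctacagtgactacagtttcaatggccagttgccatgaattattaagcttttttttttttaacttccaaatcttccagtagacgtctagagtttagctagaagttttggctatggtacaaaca
Ogn (chr13:49607865-49608014, plus strand): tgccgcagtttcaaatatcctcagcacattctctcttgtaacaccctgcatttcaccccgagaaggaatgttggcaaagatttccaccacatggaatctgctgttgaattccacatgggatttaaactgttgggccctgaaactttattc
Postn (chr3:54359117-54359266, plus strand): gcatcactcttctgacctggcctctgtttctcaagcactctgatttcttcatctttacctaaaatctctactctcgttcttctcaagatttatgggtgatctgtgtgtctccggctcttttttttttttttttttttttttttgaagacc
Itgbl1 (chr14:123659990-123660139, plus strand): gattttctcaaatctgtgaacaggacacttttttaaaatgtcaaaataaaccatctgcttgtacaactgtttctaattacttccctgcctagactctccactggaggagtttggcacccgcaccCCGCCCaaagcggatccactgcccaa
Lrrc17 (chr5:21543377-21543526, plus strand): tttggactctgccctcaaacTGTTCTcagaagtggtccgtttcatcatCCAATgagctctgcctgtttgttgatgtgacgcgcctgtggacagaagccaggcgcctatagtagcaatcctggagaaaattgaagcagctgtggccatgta

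Col5a3, the member of these 6 that was higher in co-culture, holds 2 matches to GGGCGG and 1 to CCAAT. Among the 5 lower genes, Itgbl1 holds 1 match to GGGCGG, Lrrc17 holds 1 to CCAAT and 1 to AGAACA, and Aspn, Ogn and Postn hold none of the 6 motifs in these 150 bases. In the 250 bases before the start, which the table gives for 27 members and 27025 genes, GGGCGG was present in 15 of 27 members (55.6%) and 35.4% of all genes. CAGACA was present in 9 members (33.3%) and 19.3% of all genes. The other shares lay closer, with CCAAT in 37.0% of members and 37.5% of all genes, TATAA in 25.9% and 25.8%, AGAACA in 14.8% and 18.2%, and TGANTCA in 3.7% and 7.8%. Motifs were searched on both strands and no test was made of these shares.

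More members were called lower than higher at each time, and both counts were highest at 48 h. At 6 h, 4 of 37 members were higher and 10 lower, where 4.4% of all genes were higher and 5.27% lower. At 24 h, 4 were higher and 8 lower, against 4.69% and 3.7% of all genes. At 48 h, 6 were higher and 17 lower, which is 16.2% and 45.9% of the members, against 14.6% and 16.8% of all genes. The share of members called lower was thus above the share over all genes at each time, while the share called higher was nearest to it at 48 h. Because the members were chosen with earlier results of these data known, these shares describe the list and do not test matrix genes as a class. The median ratio of the members was -0.096, -0.179 and -0.332 at 6, 24 and 48 h, where the median of all genes lay between -0.017 and 0.002. The counts at 6 and 24 h depend on the scaling. Arrays centred on their median with no loess curve gave 18 higher members at 6 h and 20 higher and 5 lower at 24 h. The median of all genes was then 0.229 and 0.388. The share of all genes called under that centring was counted at 48 h only. Whether the excess of lower calls remains at 6 and 24 h thus cannot be read. At 48 h that centring called 11.5% of all genes higher and 26.2% lower. The members' counts under it at 48 h are not given here, so members and all genes are not compared under that centring. Of the 37 members, 8 had a ratio above 0 on every array that measured them. A further 14 had one below 0 on every such array and 15 had both signs. Signs were not counted over all genes, so whether these counts are unusual cannot be read.

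**Figure D1:**
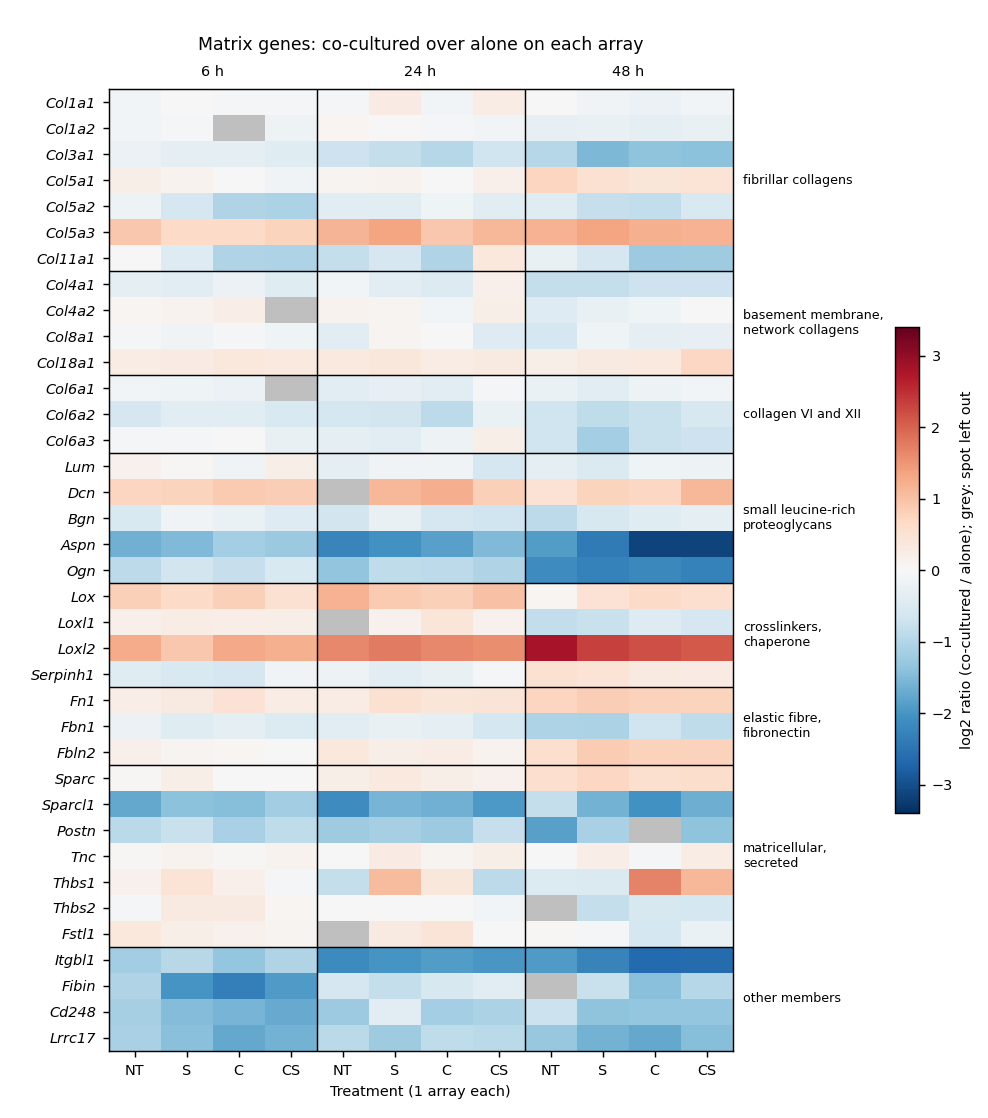
Each row is 1 of the 37 tested matrix genes and each column 1 array, grouped by time (6, 24 and 48 h) and ordered NT, S, C and CS. Colour gives the log2 ratio of co-cultured over alone cells from blue (lower in co-culture) to red (higher), and grey marks a spot left out. Loxl2, Col5a3 and Dcn are red in every measured cell and Aspn, Itgbl1 and Ogn blue, and 17 rows were called lower at 48 h.

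Fibrillar collagens carried both directions. Of 7 chains, 1 was higher at each time (Col5a3), and 2, 1 and 3 were lower at 6, 24 and 48 h. Values on the arrays are given in the order NT, S, C and CS throughout. The ratio of Col3a1, the chain of type III collagen, was -0.20, -0.31, -0.31 and -0.40 at 6 h, -0.71, -0.82, -0.96 and -0.67 at 24 h and -0.98, -1.53, -1.38 and -1.39 at 48 h. The 4 arrays of each time lay below those of the time before, with no overlap. The mean ratio of Col3a1 was -0.31 at 6 h, -0.79 at 24 h (SE 0.0621, adjusted p = 5.09e-06) and -1.32 at 48 h (adjusted p = 1.62e-08), and it was called at 24 and 48 h. When arrays were centred on their median with no loess curve, the ratio of Col3a1 was 0.61 at 6 h and 0.22 at 24 h, above 0, while it stayed below 0 at 48 h.

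Type V collagen has 3 chains here, and they differed. Col5a3 was higher on every array, at 0.92, 0.65, 0.64 and 0.75 at 6 h, 1.17, 1.34, 0.91 and 1.14 at 24 h and 1.19, 1.35, 1.20 and 1.19 at 48 h. All 4 arrays at 48 h lay above all 4 at 6 h. Its mean ratio was 0.74 at 6 h, 1.14 at 24 h and 1.23 at 48 h (SE 0.0617, adjusted p = 2.35e-08 at 48 h).

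Col5a2 was lower, at -0.17, -0.56, -1.02 and -1.07 at 6 h, -0.37, -0.36, -0.15 and -0.36 at 24 h and -0.41, -0.78, -0.84 and -0.53 at 48 h. Its mean passed the fold at 6 h (-0.70, SE 0.115, adjusted p = 0.000514) and 48 h (-0.64, adjusted p = 0.000416) but not at 24 h (-0.31). It fell just short of the fold without CS at 6 h (-0.57) and without S at 48 h (-0.58). The third chain, Col5a1, had mean ratios of 0.05, 0.09 and 0.53, the last with an adjusted p of 3.85e-06 but just short of the fold. The gene for the type XI chain, Col11a1, was dim, being well above background on 6 of 12 arrays in co-culture and 11 of 12 alone. Its ratio was 0.01, -0.45, -1.02 and -1.04 at 6 h, -0.82, -0.58, -1.02 and 0.37 at 24 h and -0.26, -0.56, -1.22 and -1.22 at 48 h. The only clear value above 0 came from the array labelled CS at 24 h, 1 of the 3 doubtful arrays. Its mean was -0.63 at 6 h (SE 0.206, adjusted p = 0.0256) and -0.82 at 48 h (adjusted p = 0.00411), both called, and without those 3 arrays Col11a1 was called at 24 h too. Its call at 6 h was lost without the array labelled S (adjusted p = 0.0766), C (adjusted p = 0.0816) or CS (adjusted p = 0.198) at that time.

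Type I collagen, the most abundant fibrillar collagen of connective tissue, was not called. The mean ratio of Col1a1 was -0.05, 0.11 and -0.10 at 6, 24 and 48 h (SE 0.0602), and on single arrays it ran from -0.20 to 0.28. Col1a2 had means of -0.13, -0.03 and -0.28, the last with an adjusted p of 5.37e-05 and a fold under the limit. With median centring in place of loess the ratio of Col1a2 was 1.54 at 6 h and 1.60 at 24 h, so its direction at these times depends on the scaling. Col1a1 was called higher at 24 h under that centring, at 0.77.

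**Figure D2:**
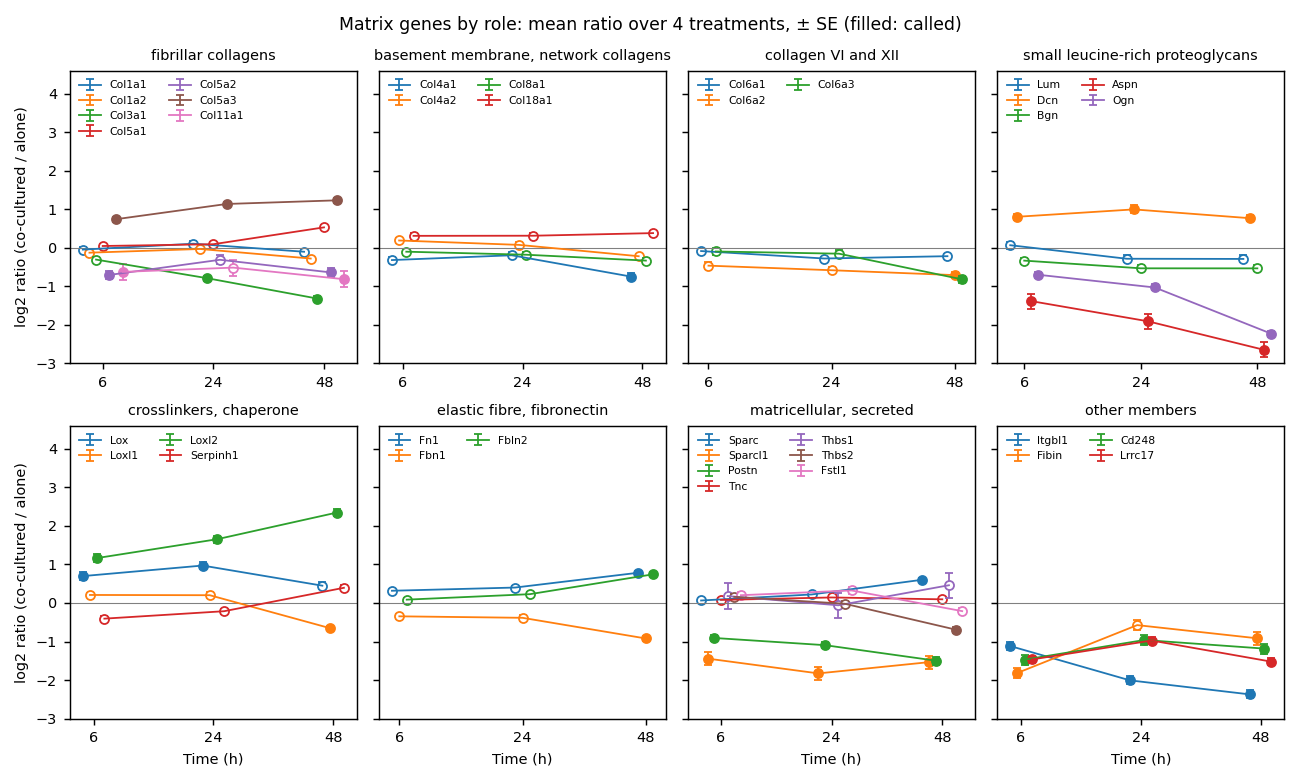
Each panel is 1 class of matrix gene, with time (6, 24 and 48 h) on the horizontal axis and the mean log2 ratio of co-cultured over alone cells on the vertical axis. Points are means over the 4 treatments, bars are the SE of the limma fit and filled points were called. The classes split, for example into Dcn above 0 and Aspn and Ogn below it, and into Loxl2 rising to 2.35 and Loxl1 falling to -0.65. Turned from below 0 to above it under median centring, with a call, were Col3a1, Col1a2, Col6a1 and Col6a3 at 6 and 24 h. At 24 h so were Col4a1, Serpinh1, Thbs1 and Thbs2. Over the settings tried, other means also passed above 0 with no call. Among them, the highest at 6 h were 0.57 for Serpinh1, 0.56 for Col4a1 and 0.27 for Fbn1.

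Basement membrane and collagen VI genes were called late or not at all. Col4a1, a collagen IV chain, was lower at 48 h only, with a mean of -0.75 (SE 0.0832, adjusted p = 9.41e-06). Its neighbour on the chromosome, Col4a2, had means of 0.19, 0.08 and -0.22 and was not called. Col8a1 and Col18a1 were not called at any time, and the 2 probes of Col18a1 had opposite signs at 48 h (0.38 and -0.33). Collagen VI assembles from the products of Col6a1, Col6a2 and Col6a3. At 48 h, Col6a2 (-0.71, adjusted p = 1.45e-05) and Col6a3 (-0.82, SE 0.0844, adjusted p = 5.08e-06) were lower, whereas Col6a1 had a mean of -0.22 and was not called. Under median centring Col6a1 and Col6a3 stood above 0 at 6 and 24 h, with Col6a3 at 1.06 and 0.97.

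Among the small leucine-rich proteoglycans, Dcn was higher and Aspn and Ogn were lower at all times. Dcn encodes decorin, which binds collagen fibrils and TGF-beta. Its ratio was 0.73, 0.76, 0.89 and 0.84 at 6 h, 1.13, 1.22 and 0.82 with S, C and CS at 24 h, and 0.48, 0.76, 0.70 and 1.13 at 48 h. The NT spot at 24 h was left out, because of its flag or its local background. The means were 0.81, 1.00 and 0.77 (SE 0.0846 to 0.104, adjusted p = 1.62e-05 at 48 h), and the ranges of the 3 times overlapped.

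Aspn encodes asporin, a close relative of decorin. Its ratio was -1.63, -1.50, -1.15 and -1.25 at 6 h, -2.23, -2.05, -1.84 and -1.50 at 24 h and -1.90, -2.42, -3.15 and -3.14 at 48 h. All 4 values at 48 h lay below all 4 at 6 h, and those with cortisol were the lowest. The mean was -1.38, -1.91 and -2.65 (SE 0.196, adjusted p = 3.69e-07 at 48 h). Aspn was well above background in co-culture on 2 of 4 arrays at 48 h, so the size of its ratio there is limited by background.

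Ogn encodes osteoglycin, also called mimecan, and lies beside Aspn on chromosome 13 with Omd between them. Its ratio was -0.89, -0.62, -0.77 and -0.52 at 6 h, -1.35, -0.87, -0.89 and -1.02 at 24 h and -2.14, -2.29, -2.20 and -2.29 at 48 h. The arrays at 48 h lay well apart from the rest. The mean was -0.70, -1.03 and -2.23 (SE 0.0783, adjusted p = 3.18e-09 at 48 h).

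Bgn (biglycan) had a ratio below 0 on every array, with means of -0.33, -0.53 and -0.53 (adjusted p = 0.000108 at 48 h), short of the fold. Lum, which encodes lumican and lies beside Dcn on chromosome 10, was well above background on 3 of 12 arrays in each channel, and it was not called. Its means were 0.07, -0.28 and -0.29, so these neighbours had different ratios.

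Of the 3 lysyl oxidase genes, Loxl2 was higher throughout, Lox early and Loxl1 was lower late. The ratio of Loxl2 was 1.27, 0.92, 1.28 and 1.20 at 6 h, 1.64, 1.76, 1.62 and 1.59 at 24 h and 2.79, 2.32, 2.18 and 2.09 at 48 h. The 3 times did not overlap, and NT was the highest at 48 h. The mean was 1.17, 1.66 and 2.35 (SE 0.0923, adjusted p = 5.51e-09 at 48 h), or 2.25-, 3.15- and 5.09-fold. Its 3 probes all were called higher at each time, with means at 48 h from 1.45 to 2.35.

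Lox, the founding lysyl oxidase, had ratios of 0.82, 0.65, 0.81 and 0.51 at 6 h, 1.18, 0.89, 0.81 and 1.00 at 24 h and 0.08, 0.50, 0.64 and 0.58 at 48 h. All 4 values at 48 h lay below those at 24 h. It was called at 6 h (0.70, SE 0.0962, adjusted p = 0.000176) and 24 h (0.97, adjusted p = 2.22e-05), and at 48 h the mean was 0.45. A second, slightly dimmer probe of Lox was called at 48 h as well, at 0.78.

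Loxl1, whose product acts on elastin, had ratios of 0.18, 0.24, 0.22 and 0.19 at 6 h, 0.16, 0.42 and 0.14 with S, C and CS at 24 h, and -0.85, -0.76, -0.43 and -0.56 at 48 h. Values were above 0 at the first 2 times and below it at 48 h, with no overlap. The mean at 48 h was -0.65 (SE 0.0588, adjusted p = 3.65e-06). The dimmer of its 2 probes had a mean of 0.20 at 48 h and was not called, so the fall of Loxl1 rests on 1 probe.

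Serpinh1 had ratios of -0.42, -0.52, -0.57 and -0.12 at 6 h, -0.17, -0.37, -0.26 and -0.06 at 24 h and 0.53, 0.46, 0.32 and 0.28 at 48 h. It was below 0 on all arrays at 6 and 24 h and above 0 on all at 48 h. Its means of -0.41, -0.21 and 0.39 did not reach the fold at any time, but the change from 6 to 48 h was called (0.80, SE 0.0934, adjusted p = 3.75e-05). Under median centring its mean at 24 h was 0.81, and over the settings tried its mean at 6 h reached 0.57.

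As processed here, fibronectin and elastic fibre genes were called at 48 h only. Fn1 encodes fibronectin, and its ratio was 0.22, 0.32, 0.49 and 0.24 at 6 h, 0.26, 0.51, 0.40 and 0.44 at 24 h and 0.74, 0.84, 0.79 and 0.76 at 48 h. Fbln2 encodes fibulin-2, which binds fibronectin and elastic fibres, and its ratio was 0.18, 0.10, 0.07 and 0.01 at 6 h, 0.36, 0.20, 0.25 and 0.11 at 24 h and 0.56, 0.85, 0.79 and 0.77 at 48 h. In both, every array at 48 h lay above every array at the earlier times. The means at 48 h were 0.79 for Fn1 (SE 0.0452, adjusted p = 5.83e-08) and 0.74 for Fbln2 (SE 0.0534, adjusted p = 2.9e-07). Fbn1, which encodes the microfibril protein fibrillin-1, was lower at 48 h (-0.92, SE 0.0706, adjusted p = 4.93e-07), with means of -0.35 and -0.38 before.

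Matricellular proteins bind the matrix and cell surface without forming fibres. Of the 7, Sparcl1 and Postn were lower at all times, Thbs2 was lower and Sparc higher at 48 h only, and Tnc, Thbs1 and Fstl1 were not called. Sparcl1, a relative of Sparc, had ratios of -1.73, -1.40, -1.45 and -1.18 at 6 h, -2.15, -1.58, -1.63 and -1.96 at 24 h and -0.82, -1.60, -2.07 and -1.65 at 48 h. The times overlapped, and its means were -1.44, -1.83 and -1.54 (SE 0.169, adjusted p = 8.75e-06 at 48 h). Sparc itself had a mean of 0.60 at 48 h (SE 0.0338, adjusted p = 4.88e-08), so the 2 relatives had opposite signs. That value came from the brightest probe, and a dimmer one gave 0.29. The call of Sparc at 48 h was lost in 6 of 25 other settings, the 2-fold limit among them. Its mean at 48 h ran from 0.45 to 1.15 over these settings. At 6 and 24 h its mean reached 1.43 and 1.60, and it was called higher in 1 setting at each of these times.

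Postn encodes periostin, which binds collagen I and fibronectin. Its ratio was -0.93, -0.76, -1.09 and -0.86 at 6 h, -1.22, -1.13, -1.24 and -0.80 at 24 h and -1.85, -1.11 and -1.37 with NT, S and CS at 48 h. All values at 48 h lay below those at 6 h. The mean was -0.91, -1.09 and -1.50 (SE 0.0849 to 0.104, adjusted p = 5.3e-07 at 48 h).

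Thbs2, a thrombospondin, had ratios of -0.06, 0.30, 0.31 and 0.07 at 6 h, -0.02, 0.02, 0.02 and -0.10 at 24 h and -0.81, -0.54 and -0.61 with S, C and CS at 48 h. The mean at 48 h was -0.69 (SE 0.0775, adjusted p = 1.84e-05), and without the S array it was -0.58, short of the fold. Its relative Thbs1 ran from -0.89 to 1.69 over the 12 arrays, the widest spread among the members that were not called. Thbs1 stood at 1.69 with C and 1.12 with CS at 48 h but at -0.48 with NT and -0.49 with S, and its mean at 48 h was 0.46 (SE 0.328, adjusted p = 0.227). Tnc was well above background on 3 of 12 arrays in co-culture and 1 of 12 alone, so little can be read from it at this brightness.

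The other 4 members were all lower at 6 and 48 h. Itgbl1 encodes a secreted protein with integrin-like repeats. Its ratio was -1.18, -0.94, -1.32 and -1.03 at 6 h, -2.16, -2.01, -1.90 and -1.97 at 24 h and -1.94, -2.28, -2.65 and -2.62 at 48 h. Values at 6 h stood apart from both later times. The mean was -1.12, -2.01 and -2.37 (SE 0.105, adjusted p = 1.07e-08 at 48 h).

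Fibin, a small secreted protein, had ratios of -1.02, -1.99, -2.32 and -1.92 at 6 h, -0.58, -0.81, -0.56 and -0.35 at 24 h and -0.76, -1.41 and -0.97 with S, C and CS at 48 h. It was lowest at 6 h, where NT differed from the other treatments. The mean was -1.82 at 6 h (SE 0.138, adjusted p = 1e-05), -0.57 at 24 h, just short of the fold, and -0.92 at 48 h (adjusted p = 0.00068).

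Cd248 encodes endosialin, a surface protein of stromal cells. Its ratio was -1.12, -1.47, -1.57 and -1.72 at 6 h, -1.24, -0.36, -1.16 and -1.08 at 24 h and -0.72, -1.38, -1.32 and -1.32 at 48 h. The value nearest 0 was that of S at 24 h, 1 of the 3 doubtful arrays. The means were -1.47, -0.96 and -1.18 (SE 0.131, adjusted p = 9.23e-06 at 48 h). Lrrc17, a secreted leucine-rich repeat protein, had ratios of -1.09, -1.42, -1.75 and -1.61 at 6 h, -0.91, -1.20, -0.86 and -0.93 at 24 h and -1.29, -1.61, -1.74 and -1.45 at 48 h. Its means were -1.47, -0.97 and -1.52 (SE 0.085, adjusted p = 4.78e-08 at 48 h), nearest 0 at 24 h.

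The change of the ratio between times was tested in the same fit, and the contrasts of 24 and 48 h against 6 h share the 6 h arrays. From 6 to 24 h, 1 member rose (Fibin, 1.24) and 1 fell (Itgbl1, -0.89), against 1.74% and 0.73% of all genes. Without the 3 doubtful arrays neither was called. From 24 to 48 h, 2 members rose (Loxl2 and Serpinh1) and 5 fell (Aspn, Col6a3, Loxl1, Ogn and Thbs2), against 9.4% and 11.7% of all genes. From 6 to 48 h, 4 of 37 rose and 8 fell, against 12% and 12.3% of all genes. The largest of these were Ogn at -1.53 (SE 0.111, adjusted p = 1.99e-06), Aspn at -1.27 (SE 0.277, adjusted p = 0.00254), Itgbl1 at -1.25 (SE 0.148, adjusted p = 4.08e-05) and Loxl2 at 1.18 (SE 0.131, adjusted p = 2.66e-05). Of the 12, all but Fibin were called without the 3 doubtful arrays too.

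Each channel was then compared between 48 and 6 h on its own, as normalised log2 intensity. In co-cultured cells 6 members rose and 7 fell, against 13% and 15.6% of all genes, and in cells alone 5 rose and 2 fell, against 6.57% and 7.29%. Of the 12 members whose ratio changed, 7 were called in the co-cultured channel only (Aspn, Col6a3, Fibin, Loxl1, Loxl2, Serpinh1 and Thbs2). Another 3 were called in the alone channel only (Col3a1, Itgbl1 and Postn) and 2 in neither (Fbln2 and Ogn). This split was not made over all genes, which also had more calls in the co-cultured than in the alone channel. It therefore describes these genes and is not a trait of the members.

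Loxl2 had a mean level of 9.87 at 6 h and 11.05 at 48 h in co-culture, and of 8.70 at both times alone. Loxl1 went from 14.19 to 13.15 in co-culture and from 13.98 to 13.80 alone. The fall in co-culture was -1.03 (SE 0.0714, adjusted p = 4.3e-06). Aspn went from 8.31 to 7.07 in co-culture, where it fell with each treatment, and from 9.70 to 9.72 alone. The alone mean hides opposite moves by treatment. Alone, Aspn fell from 9.86 to 8.78 with NT and from 9.50 to 9.24 with S. It rose alone from 9.70 to 10.30 with C and from 9.73 to 10.54 with CS. In these 3 genes the change was called in the co-cultured channel. For Serpinh1 the rise of 0.59 in co-culture sat at the fold limit and was lost without any 1 of NT, S or C at 6 or 48 h (0.51 to 0.57).

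Col3a1 went the other way about. Its mean level was 14.47 at 6 h and 14.27 at 48 h in co-culture, whereas alone it went from 14.78 to 15.59, a rise of 0.81 (SE 0.11, adjusted p = 0.000606). Itgbl1 likewise rose alone, from 9.19 to 10.12 (adjusted p = 0.0041), and stood at 8.07 and 7.75 in co-culture. Postn rose alone by 0.92 (SE 0.11, adjusted p = 0.000511). The lower ratios of these 3 genes at 48 h thus lay beside a rise in cells grown alone.

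Some members moved in both channels together. Col1a1 rose by 0.98 in co-culture (SE 0.127, adjusted p = 9.91e-05) and by 1.03 alone (SE 0.145, adjusted p = 0.000729), and its ratio changed by -0.06 (SE 0.0851). Lrrc17 rose by 1.24 and 1.29, and Col4a1 fell by 1.19 in co-culture and by 0.76 alone. Col5a3 fell alone by 0.87 (adjusted p = 0.00148).

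**Figure D3:**
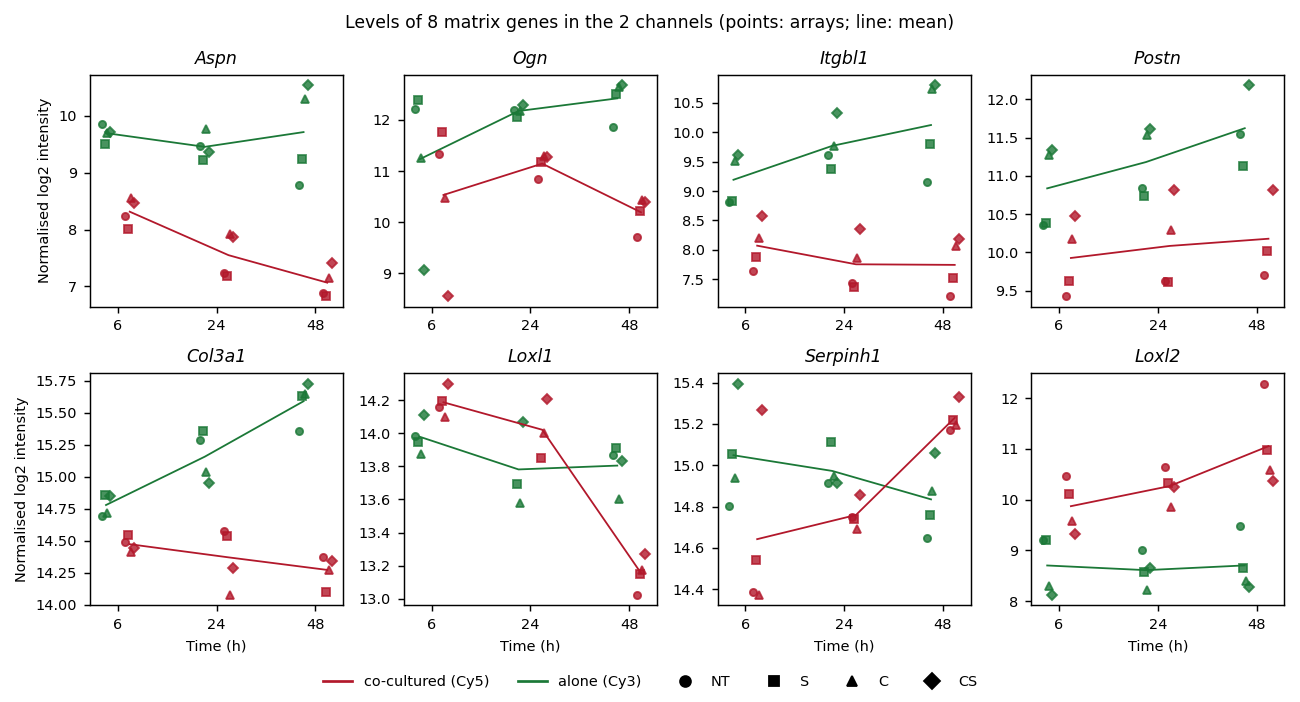
Normalised log2 intensity of 8 matrix genes at 6, 24 and 48 h in co-cultured cells (red, Cy5) and cells alone (green, Cy3), 1 point for each array with the treatment as its symbol and a line through the means. Vertical axes differ between genes, since levels of different probes are not compared. Col3a1 rises alone from 14.78 to 15.59, Loxl2 rises in co-culture from 9.87 to 11.05, and Loxl1 falls in co-culture from 14.19 to 13.15.

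**Figure D4:**
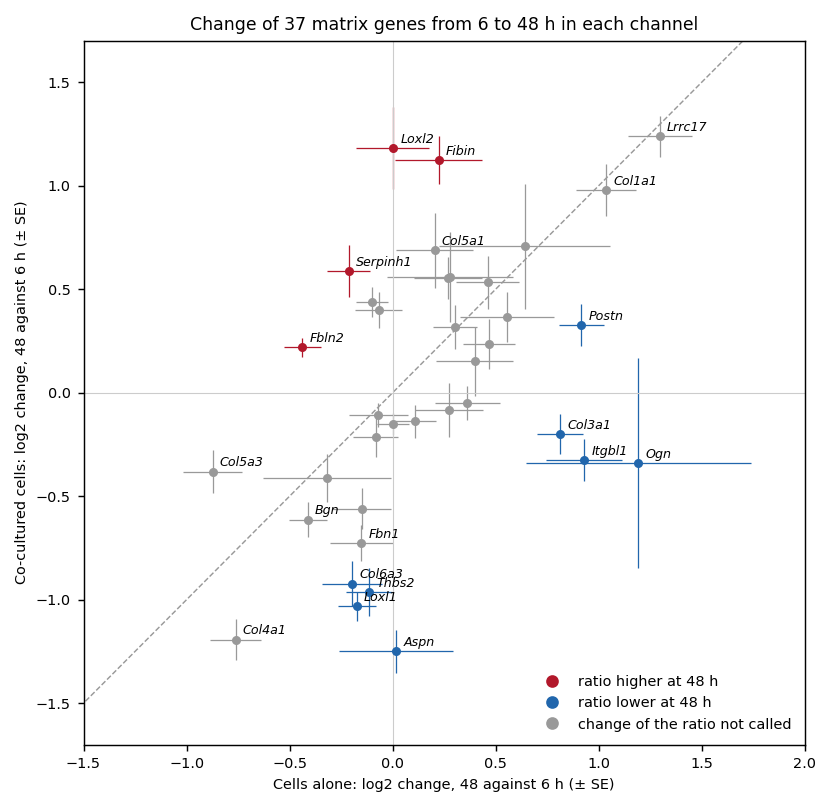
Change of 37 matrix genes from 6 to 48 h, with cells alone on the horizontal and co-cultured cells on the vertical axis (log2 difference, bars are SE, dashed line is equal change). Red genes had a higher ratio at 48 h and blue genes a lower one, 4 and 8 in all. Col1a1 and Lrrc17 lie near the line at about 1 or more on both axes, while Aspn, Loxl1 and Thbs2 lie below it.

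No member's co-culture ratio was called for a hormone. For S, C and CS against NT, which share the 3 NT arrays, limma called 0 of 37 members and 0% of all genes in each contrast. At an unadjusted p under 0.05 there were 7 members for S, 5 for C and 4 for CS, where 13%, 9.82% and 9.21% of all genes had one.

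In the separate channels, a few members were called for C or CS against NT. In co-cultured cells 4 of 37 members were called for C, against 1.92% of all genes, and 5 for CS, against 3.63%. With C, Col11a1 (0.67, SE 0.139), Postn (0.73, SE 0.123) and Itgbl1 (0.61, SE 0.116) were higher and Loxl2 (-1.13, SE 0.23) lower, with adjusted p from 0.0218 to 0.0384. With CS the same 4 genes were called in the same directions, at 1.13, 1.12, 0.94 and -1.15, and Col18a1 was higher at 0.68 (SE 0.146, adjusted p = 0.0264). These calls rest on few arrays. For C, none of the 37 members was called without NT at 6 h or without any 1 of the 3 C arrays, 1 was called without NT at 24 h and 2 without S at 24 h. For CS, 3 were called without NT at 6 h, CS at 6 h or CS at 48 h.

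The level of Postn in co-culture was 9.43, 9.62 and 9.70 on the NT arrays at 6, 24 and 48 h, 10.18 and 10.29 on the C arrays at 6 and 24 h, and 10.48, 10.82 and 10.81 on the CS arrays, the C spot at 48 h being left out. No NT array reached the lowest C or CS array. Loxl2 in co-culture was 10.47, 10.64 and 12.28 on the NT arrays, 9.57, 9.85 and 10.59 on the C arrays and 9.33, 10.24 and 10.37 on the CS arrays. On the S arrays it was 10.12, 10.34 and 10.97, also below NT at each time, with a difference from NT of -0.66 that was not called (SE 0.23, adjusted p = 0.738).

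In cells alone, 3 members were called for CS, against 1.33% of all genes, namely Col11a1 (1.40, SE 0.265, adjusted p = 0.0369), Postn (0.80, SE 0.113, adjusted p = 0.0183) and Itgbl1 (1.05, SE 0.215, adjusted p = 0.0486). None of the 37 members was called for CS alone without NT at 6 h, CS at 6 h or NT at 24 h, and 1 was called without any 1 of S at 6, 24 or 48 h, C at 6, 24 or 48 h, or CS at 48 h. For C alone, limma called 0 members, against 0.195% of all genes, with 13 members and 17.3% of all genes at an unadjusted p under 0.05, and it called 4 without the array labelled CS at 24 h. Col11a1 had 1.40 there (adjusted p = 0.0687) and Loxl2 -0.92 (adjusted p = 0.0818). For S, limma called 0 members in either channel, with 4 in co-culture and 2 alone at an unadjusted p under 0.05, against 6.38% and 7.82% of all genes.

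Without the 3 doubtful arrays, no member was called for C or CS in co-culture, and the 5 genes named had adjusted p from 0.0823 to 0.302 there. Calls over all genes fell as well, to 0.166% for C and 0.0578% for CS. The differences stayed near their size, with Postn at 0.72 for C and 1.07 for CS and Loxl2 at -1.12 and -1.43. In cells alone Col11a1 (1.37, adjusted p = 0.0223) and Loxl2 (-0.91, adjusted p = 0.0312) were then called for C, and Col11a1 (1.79, adjusted p = 0.0244) for CS, with 1.03% and 0.166% of all genes. The direction of all 5 genes was the same with and without these arrays in both channels.

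**Figure D5:**
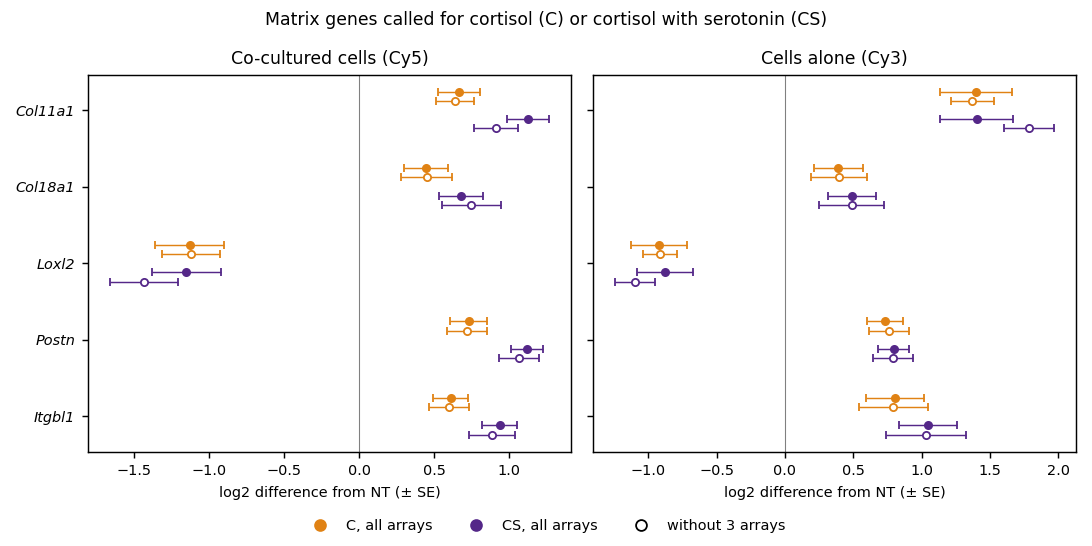
Log2 difference from NT (horizontal axis, bars are SE) for the 5 matrix genes called for cortisol (C, orange) or cortisol with serotonin (CS, purple) in at least 1 channel, in co-cultured cells on the left and cells alone on the right. Open points leave out the 3 doubtful arrays, on which the alone level of Zbtb16 went against the label. Loxl2 lies below 0 and the other 4 genes above it in both channels.

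Other genes of the matrix, listed by function but with earlier results of these data known, leaned the other way. Of 143 such genes 98 were tested. At 6 h, 9 were higher and 7 lower, or 9.18% and 7.14%, against 4.4% and 5.27% of all genes. At 24 h, 15 were higher and 7 lower, or 15.3% and 7.14%, against 4.69% and 3.7%. At 48 h, 36 were higher and 13 lower, or 36.7% and 13.3%, against 14.6% and 16.8%. The lower share at 48 h was thus near that of all genes, and lists of few genes, below, can be read only as counts. Their median ratio was 0.033, 0.078 and 0.23 at 6, 24 and 48 h, against -0.332 for the 37 members at 48 h. By number, most higher calls at 48 h were in the lists of collagen processing enzymes (9 of 21 higher, 1 lower) and of other collagens (7 of 13 higher, 1 lower). This ranking goes by number and not by share, and longer lists can hold more calls. Among other proteoglycans 4 of 7 were higher.

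In each list the called gene with the largest change at 48 h in a direction is given. Adamts14, which trims procollagen, was at 1.78 and Colgalt1, which adds galactose to collagen, at -0.998. Col7a1 of anchoring fibrils was at 1.54 and the collagen IV chain Col4a5 at -0.83. Lama5, a laminin chain, was at 2.11 (SE 0.0796, adjusted p = 4.65e-09) and Lama4 at -0.66, with 3 laminins and nidogens higher and 2 lower of 13.

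Among other proteoglycans 4 of 7 were higher, led by Prg4 (lubricin) at 1.78, and 2 lower, led by Vcan (versican) at -0.92. Of other matricellular genes 2 of 11 were higher and 4 lower, with Matn4 at 0.85 and Matn2 at -1.90. Of other elastic fibre genes 4 of 13 were higher, led by Emilin1 at 1.69, and 1 lower, Efemp1 at -1.33. Receptors for collagen and fibronectin had 4 of 11 higher and none lower, led by Mrc2, which takes up collagen for breakdown, at 1.53. Hyaluronan genes had 2 of 5 higher, led by Hapln3 at 0.91. Of 4 other crosslinking enzymes Tgm2 was higher at 0.73 and 2 were lower, led by Loxl4 at -0.84.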

How the data were processed

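Co-cultured (Cy5) and alone (Cy3) pre-adipocyte RNAs were hybridised to 12 dual-colour arrays, 1 for each treatment and time, with no dye swap. Spots were read by Agilent Feature Extraction (version 10.7.3.1 per the file headers, although the notes of the submitters name 10.5.1.1). The deposited files hold intensity values (median and processed signals) and log10 ratios by Feature Extraction, and the deposited value table holds the same log10 ratios. The deposited flags (other values) mark control, outlier and background spots. The genes and lists were chosen with earlier results of these data known.

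Median signals were corrected with normexp (offset 50) and loess, with control spots at weight 0, in limma 3.58.1 (R 4.3.3). Outlier spots and spots whose local background exceeded 5 times the array's median were left out. A probe was kept if 1 of its channels was well above background on 3 or more arrays (23036 of 39429 were), and each gene was read from its brightest probe. The limma fit (lmFit, eBayes with trend) had time and treatment as terms and 6 residual degrees of freedom, with Benjamini-Hochberg adjustment over 13846 genes. Channels were scaled with Aquantile. The script was tested on simulated data. The fit drops a spot left out, so such a gene's mean is over fewer arrays. Precision is limited by the number of arrays. Values on every array are given for members called at 2 or more times in 1 direction, for the 5 highest and 5 lowest at 48 h, and for those whose sign differs between times with the change called. No spot was saturated. Promoter sequences are from RefSeq (GRCm38.p6).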

Additional observations from a re-analysis of the deposited data

Results flagged for a closer look

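The co-culture ratio of 12 members differed between 2 times by the limma test of the change itself (log2 scale). From 6 to 24 h Fibin changed by 1.24 and Itgbl1 by -0.89. From 24 to 48 h Aspn changed by -0.74, Col6a3 by -0.67, Loxl1 by -0.85, Loxl2 by 0.69, Ogn by -1.20, Serpinh1 by 0.61 and Thbs2 by -0.67. From 6 to 48 h Aspn changed by -1.27, Col3a1 by -1.01, Col6a3 by -0.72, Fbln2 by 0.66, Fibin by 0.90, Itgbl1 by -1.25, Loxl1 by -0.86, Loxl2 by 1.18, Ogn by -1.53, Postn by -0.59, Serpinh1 by 0.80 and Thbs2 by -0.85.

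In 5 of the 102 sets of 4 arrays of 1 gene and time, 1 array stood far from the other 3, and chance alone gives about 1 in 20. Cd248 was at -0.72 with NT at 48 h, where the others lay from -1.38 to -1.32. Col5a2 was at -0.15 with C at 24 h, with the others from -0.37 to -0.36. Col5a3 was at 1.35 with S at 48 h, with the others from 1.19 to 1.20. Col6a3 was at -1.16 with S at 48 h, with the others from -0.75 to -0.68. Sparc was at 0.19 with S at 6 h, with the others from 0.015 to 0.036.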

How the results depend on the processing

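Counts here are of the 37 members called. With each array left out in turn, the ratio gave 4 higher and 8 to 10 lower at 6 h, 4 higher and 8 to 11 lower at 24 h and 6 to 7 higher and 15 to 18 lower at 48 h. Its changes gave 2 to 3 (24 against 6 h), 6 to 10 (48 against 24 h) and 11 to 13 (48 against 6 h), and the hormones gave 0. In co-culture the ranges were 2 to 4, 7 to 9 and 11 to 15 for those times, where 3, 8 and 13 were called over all arrays, and 0 to 4 for C and 3 to 6 for CS. In cells alone they were 0 to 3, 2 to 4 and 7 to 8, where 1, 2 and 7 were called, and 0 to 4 for C and 0 to 3 for CS. Median centring without loess moved the median of all genes to 0.229, 0.388 and -0.158 at 6, 24 and 48 h, and the share of all genes called at 48 h to 11.5% higher and 26.2% lower. It gave 18 members higher at 6 h, 20 higher and 5 lower at 24 h, 5, 25 and 22 changes of the ratio in the same order of times, and 1 call for C in the ratio. Under it the ratio at 6 and 24 h was 1.54 and 1.60 for Col1a2, 0.61 and 0.22 for Col3a1, 1.05 and 0.88 for Col6a1 and 1.06 and 0.97 for Col6a3, and at 24 h it was 0.63 for Col4a1, 0.81 for Serpinh1, 0.98 for Thbs1 and 0.74 for Thbs2, all turned in sign. Loxl1 at 48 h was 0.19 with only probes above background on all 12 arrays, since that filter takes its dimmer probe. A 2-fold limit left 1 higher and 6 lower at 6 h, 2 and 5 at 24 h, and 2 and 8 at 48 h. It left 1, 1 and 5 changes of the ratio, 1, 0 and 6 in co-culture with 1 for C and 3 for CS, and 0, 1 and 2 alone. For 24 against 6 h the ratio gave 4 with Feature Extraction's processed signals, 4 with the deposited ratios, 1 with the filter on all 12 arrays and 0 without the 3 doubtful arrays, and for 48 against 24 h it gave 4 with scaling between arrays. Without the 3 doubtful arrays co-culture gave 0 for C and 0 for CS, and cells alone 0 for 24 against 6 h, 0 for 48 against 24 h, 2 for C and 1 for CS. A joint fit of both channels gave 1 for 24 against 6 h and 1 for C in co-culture, and 4 for C alone. With no filter on dim probes 1 was called for C in co-culture and 1 for CS alone, and an offset of 16 gave 3 for 24 against 6 h alone. The cause of these changes was not tested. The other settings, array weights, time alone in the model, the mean of a gene's probes, quantile scaling over all channels and, chosen after seeing the data, high local backgrounds kept, left each count within 1.5 times its value. Normexp on mean signals was not run, since median signals are what the files used here hold. Co-cultured and alone cells are paired within each array by the ratio. No pairing of arrays by replicate was possible, because each group has 1 array and the groups share the number 1 only. Dim members, Lum, Tnc and Col11a1 above all, are limited by signal over background.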

Other observations

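The level of Ogn with CS at 6 h stood apart in both channels, at 8.55 (log2 intensity) in co-culture and 9.06 alone. With C at 6 h it was 10.48 in co-culture, within the range of the rest, and 11.25 alone, below it, where the other arrays ran from 9.72 to 11.76 in co-culture and from 11.86 to 12.68 alone. The ratio was -0.52 and -0.77 on the CS and C arrays, against -0.89 and -0.62 with NT and S at 6 h.

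Thbs1 reached 1.69 with C and 1.12 with CS at 48 h and 1.07 with S at 24 h, and lay at -0.80 with NT and -0.89 with CS at 24 h. Its level alone was 15.61, 14.27, 14.52 and 15.33 with NT, S, C and CS at 24 h and 15.30, 15.45, 14.14 and 14.52 at 48 h. At both times the arrays with the higher alone levels were those with ratios below 0, and the ratio holds the same Cy3 signal as that level.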
